A study of Mus musculus with 11 samples.

Results

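Lysosomal proteases cut endocytosed proteins into the peptides that dendritic cells present on MHC class II, and trim the invariant chain that guards the class II groove. Expression of 10 genes of this system was examined in classical dendritic cells (cDCs) of mouse spleen: the cysteine cathepsins Ctsb, Ctsc, Ctsh, Ctsl, Ctss and Ctsz, the aspartic cathepsins Ctsd and Ctse, the asparaginyl endopeptidase legumain (Lgmn), and Cst3, which encodes cystatin C, a secreted inhibitor of cysteine cathepsins. The genes were chosen by name, and each was read from its only probe set with a single gene symbol, so that all 10 were measured among 19938 genes. Their mean log2 levels ranged from 6.01 for Ctse to 12.09 for Cst3, and every mean exceeded the median level of all genes, 5.53. Levels of different genes are not compared, because each probe set has its own response.

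The arrays came from cDCs sorted by flow cytometry from spleens of C57BL/6 mice. CD24+ cDCs (3 arrays) and CD172a+ cDCs (4 arrays) came from control mice, Zeb2(fl/fl), which carry floxed alleles of the transcriptional repressor gene Zeb2 and no Cre. CD172a+ cDCs labelled Zeb2-deficient (4 arrays) came from Zeb2(fl/fl);CD11c-Cre(tg) mice. In these mice a transgene under the promoter of the dendritic cell integrin CD11c drives Cre, so deletion is restricted to cells in which that promoter is active and may be incomplete. All groups therefore carry floxed Zeb2, and effects of the Cre transgene and of Zeb2 loss cannot be told apart. Age and sex of the mice are not known here. The labels do not tie replicates to separate mice, so each p-value measures sample-to-sample spread that may be partly technical.

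The sorted subsets matched their labels. Of 10 markers of cDC1, the subset marked by CD24, 9 were higher in CD24+ than in control CD172a+ cDCs, against 3.25% of all genes. Of 10 markers of cDC2, the subset marked by CD172a (Sirpa), 8 were lower there, against 3.16%. Both counts are at an adjusted p below 0.05 in limma. The sort used CD24 and CD172a, so Sirpa is no finding. Zeb2 itself averaged 8.33 ± 0.19 (SD, n = 4) in control CD172a+ cDCs, 8.79 ± 0.44 (SD, n = 4) in those labelled Zeb2-deficient and 5.26 ± 0.23 (SD, n = 3) in CD24+ cDCs. It was thus not lower in the labelled group, and whether its probe set covers the deleted exon is not known here, so every direction for this group rests on its label. The arrays also fell into separate array sets on the second principal component (34.2% of the variance). The first set (set 1) holds replicates 1 and 2 of both CD172a+ groups and CD24+ replicate 1, and the second (set 2) holds all other arrays. No label explains the sets. They were found from the same values, so differences between them are given as descriptions.

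Cysteine cathepsins, which include Ctsl and Ctss, are made as inactive precursors and mature in acid endosomes. In textbook accounts Ctss removes the last part of the invariant chain in dendritic cells and B cells, and Ctsl does so in thymic epithelium. Ctsd and Ctse cut between hydrophobic residues, legumain cuts after asparagine, and Ctsc trims dipeptides from the ends of other proteases and activates granule serine proteases. Cystatin C is a highly expressed product of CD8+ dendritic cells of spleen and blocks cathepsins of this family. Tfeb and its relative Tfe3 are the transcription factors that switch on lysosomal genes as a set, through an E-box with the core CACGTG.

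Promoter windows of RefSeq (GRCm38.p6, 250 bases before to 50 after an annotated start) were available for 7 of the 10 genes, all but Ctsb, Ctse and Ctsh. They are shown for 5 of the 6 genes that differed between the subsets, all but Ctse, and were thus chosen by that result. Capitals mark CACGTG, the core of the E-box bound by Tfeb and Tfe3, and GAGGAA or its reverse complement, a core bound by the myeloid factor PU.1. The E-box CACCTG, which Zeb factors bind, was also searched and would be in capitals. The windows are chr2:148875463-148875762 on the minus strand for Cst3, chr7:88277835-88278134 on the plus strand for Ctsc, chr7:142387778-142388077 and chr13:64370471-64370770 on the minus strand for Ctsd and Ctsl, and chr12:102439679-102439978 and chr12:102439043-102439342 on the minus strand for the upstream and downstream starts of Lgmn.
Cst3: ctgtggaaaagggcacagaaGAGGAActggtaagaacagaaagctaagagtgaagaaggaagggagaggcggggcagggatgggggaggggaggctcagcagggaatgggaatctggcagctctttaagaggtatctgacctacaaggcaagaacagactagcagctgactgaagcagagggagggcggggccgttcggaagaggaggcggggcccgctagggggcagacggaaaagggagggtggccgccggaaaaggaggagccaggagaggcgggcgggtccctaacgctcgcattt
Ctsc: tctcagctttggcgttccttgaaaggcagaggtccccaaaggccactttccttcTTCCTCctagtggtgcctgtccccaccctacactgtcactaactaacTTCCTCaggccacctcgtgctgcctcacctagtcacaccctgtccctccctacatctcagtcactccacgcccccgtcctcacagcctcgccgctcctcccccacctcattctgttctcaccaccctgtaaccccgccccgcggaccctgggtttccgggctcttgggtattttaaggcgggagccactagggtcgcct
Ctsd: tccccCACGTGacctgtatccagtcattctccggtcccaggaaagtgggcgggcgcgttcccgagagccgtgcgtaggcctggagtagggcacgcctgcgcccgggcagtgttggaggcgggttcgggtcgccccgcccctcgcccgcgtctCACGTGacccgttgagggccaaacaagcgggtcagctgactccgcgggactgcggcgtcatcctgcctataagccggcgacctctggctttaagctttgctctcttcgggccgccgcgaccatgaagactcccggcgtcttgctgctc
Ctsl: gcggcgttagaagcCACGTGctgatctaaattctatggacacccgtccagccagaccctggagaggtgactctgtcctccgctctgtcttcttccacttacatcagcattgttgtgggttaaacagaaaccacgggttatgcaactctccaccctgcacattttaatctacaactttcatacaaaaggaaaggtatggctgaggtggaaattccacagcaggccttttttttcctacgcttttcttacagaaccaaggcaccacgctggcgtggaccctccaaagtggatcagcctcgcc
Lgmn, upstream start: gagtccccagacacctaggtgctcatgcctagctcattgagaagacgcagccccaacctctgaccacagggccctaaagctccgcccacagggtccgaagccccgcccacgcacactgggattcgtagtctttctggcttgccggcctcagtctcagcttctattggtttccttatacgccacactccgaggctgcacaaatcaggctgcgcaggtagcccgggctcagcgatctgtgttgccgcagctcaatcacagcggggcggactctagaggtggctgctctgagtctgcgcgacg
Lgmn, downstream start: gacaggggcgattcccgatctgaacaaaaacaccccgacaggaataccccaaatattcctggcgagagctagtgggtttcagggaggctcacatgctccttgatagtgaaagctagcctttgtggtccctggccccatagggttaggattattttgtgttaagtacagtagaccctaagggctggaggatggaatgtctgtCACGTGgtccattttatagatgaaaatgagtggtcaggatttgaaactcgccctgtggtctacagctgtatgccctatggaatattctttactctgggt

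CACGTG occurred in 3 of the 8 windows of the 7 genes, those of Ctsd, Ctsl and the downstream start of Lgmn, against 7.15% of all 32851 promoter windows. In Ctsd it occurred at 2 places, at positions -245 and -98 relative to the start. It lay at -236 in Ctsl and at -49 in Lgmn. All 3 of these genes were lower in CD24+ than in CD172a+ cDCs. Ctsc, which was lower as well, had no CACGTG in its window, nor did Cst3, which was higher. GAGGAA, read on both strands, occurred in 3 of the 8 windows, those of Ctsc, Ctss and Cst3, against 28.3% of all windows. CACCTG, also read on both strands, occurred in 0 of 8, against 20.2%. The Ctss window also held a core of the interferon response element on either strand, GAAACCGAAA at position -21, which 3.44% of windows hold. A match is a description of these letters and not a binding site. The GC content was 67.3% in Ctsd and 44.0% in Ctss against a median of 52.7%.

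**Figure D1:**
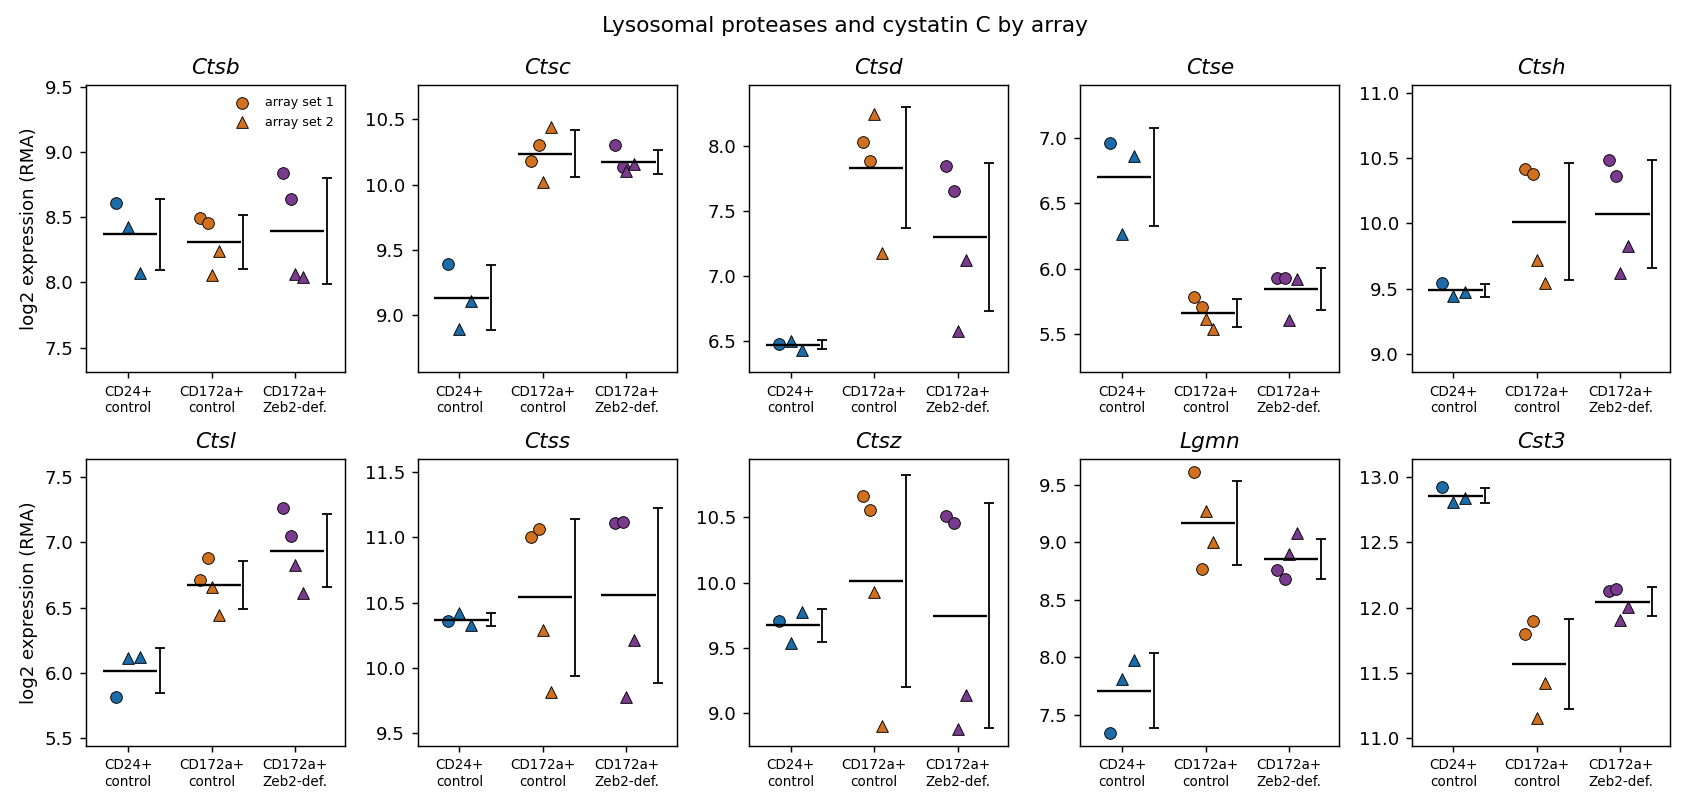
Log2 expression (RMA values) of the 10 genes on each array, with CD24+ control cDCs (3 arrays), CD172a+ control cDCs (4 arrays) and CD172a+ cDCs labelled Zeb2-deficient (4 arrays). Horizontal lines are group means, bars to the right are 1 SD, circles are the first array set and triangles the second, and every panel spans at least 2.2 log2 units. Cst3 and Ctse sit higher in CD24+ cDCs, Lgmn, Ctsc, Ctsd and Ctsl lower, and the CD172a+ points of Ctss, Ctsz and Ctsh part by array set.

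Control CD24+ and CD172a+ cDCs were compared to ask how the system differs between the subsets. CD24+ cDCs had more of the inhibitor cystatin C and of Ctse, and less of Lgmn, Ctsd, Ctsc and Ctsl. Of the 10 genes, 6 passed at an adjusted p below 0.05 in limma (2 higher, 4 lower in CD24+ cDCs), where 6.41% of all genes passed (3.25% higher, 3.16% lower). For these same 6 genes no CD24+ array fell within the CD172a+ range, as for 14.6% of all genes. The median difference of the 10 genes was -0.43, against -0.02 for all genes. In these sorted bulk samples, fewer cells of a kind and less RNA per cell cannot be told apart.

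Cst3, the inhibitor, read 12.93, 12.81 and 12.84 in CD24+ cDCs. In control CD172a+ cDCs it read 11.80, 11.90, 11.16 and 11.42. Every CD24+ array lay above every CD172a+ array, and the CD172a+ arrays spread more. The means were 12.86 ± 0.06 (SD, n = 3) and 11.57 ± 0.34 (SD, n = 4), a difference of 1.29 on the log2 scale (SE 0.161) or 2.45-fold, with an adjusted p of 0.000480 in limma.

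Lgmn, which cuts after asparagine and processes both antigens and other cathepsins, read 7.34, 7.81 and 7.97 in CD24+ cDCs. In control CD172a+ cDCs it read 9.61, 8.77, 9.27 and 9.0. The groups were separated by a gap wider than the spread of the CD24+ arrays. The difference was -1.46 (SE 0.207), 2.74-fold lower in CD24+ cDCs, with an adjusted p of 0.00118 in limma.

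Ctsc, the dipeptidyl peptidase, read 9.39, 8.90 and 9.11 in CD24+ cDCs. It read 10.18, 10.30, 10.02 and 10.44 in control CD172a+ cDCs, again with no overlap. The difference was -1.11 (SE 0.134), 2.15-fold lower in CD24+ cDCs, with an adjusted p of 0.000386 in limma, the smallest of the 10 genes.

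The aspartic cathepsins went opposite ways. Ctsd, the main aspartic protease of lysosomes, read 6.48, 6.50 and 6.43 in CD24+ cDCs and 8.02, 7.88, 8.24 and 7.17 in control CD172a+ cDCs. The CD24+ arrays were nearly level, while control CD172a+ replicate 4 lay below the other 3. The difference was -1.36 (SE 0.302), 2.56-fold lower in CD24+ cDCs, with an adjusted p of 0.0205 in limma. Ctse, an aspartic protease of endosomes, read 6.97, 6.27 and 6.87 in CD24+ cDCs and 5.78, 5.71, 5.62 and 5.54 in control CD172a+ cDCs. All CD24+ arrays lay above all CD172a+ arrays. The difference was 1.04 (SE 0.161), 2.05-fold higher in CD24+ cDCs, with an adjusted p of 0.00216 in limma. The CD172a+ mean of 5.66 lies close to the median level of all genes in that group, 5.52, where RMA values shrink, so the fold is not an exact ratio.

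Ctsl, a broad cysteine endopeptidase, read 5.82, 6.11 and 6.12 in CD24+ cDCs and 6.71, 6.88, 6.66 and 6.44 in control CD172a+ cDCs. The groups did not overlap. The difference was -0.66 (SE 0.162), 1.58-fold lower in CD24+ cDCs, with an adjusted p of 0.0344 in limma. The calls of Ctsl and Ctsd were lost without CD24+ replicate 1, 2 or 3 or control CD172a+ replicate 1, 2 or 3 (adjusted p from 0.0305 to 0.133 for Ctsl and from 0.00706 to 0.0763 for Ctsd over the 7 arrays left out in turn), and held without control CD172a+ replicate 4. The differences kept their sign, from -0.73 to -0.56 and from -1.58 to -1.22. By exact permutation of the array labels (two-sided, 35 assignments), Cst3, Lgmn, Ctsc, Ctse and Ctsl reached 0.0286, the smallest p this design allows, and Ctsd 0.0571.

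**Figure D2:**
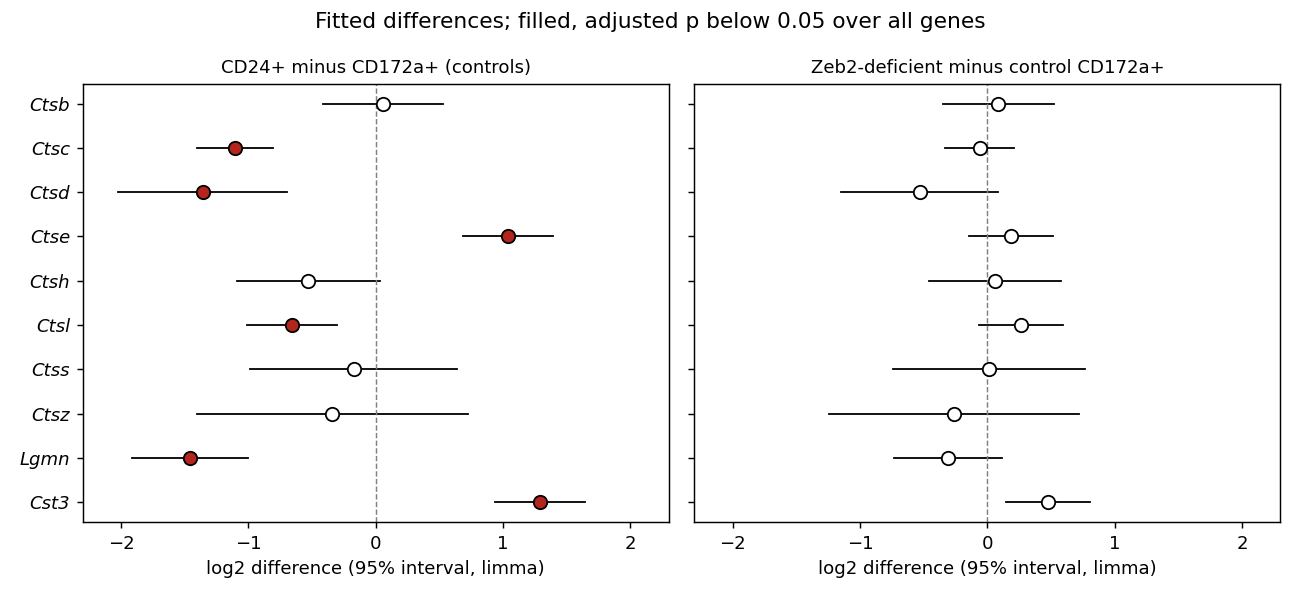
Fitted log2 differences of the 10 genes with 95% intervals from limma, for control CD24+ minus control CD172a+ cDCs on the left and CD172a+ cDCs labelled Zeb2-deficient minus control on the right. Filled points passed at an adjusted p below 0.05 over all genes, 6 on the left and 0 on the right.

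The other 4 genes, Ctss, Ctsz, Ctsh and Ctsb, did not pass between the subsets, and in them the CD172a+ arrays parted by array set. Ctss, the invariant chain protease of dendritic cells, read 10.36, 10.42 and 10.33 in CD24+ cDCs, within a range of 0.1 log2 units. In control CD172a+ cDCs it read 11.004 and 11.07 in set 1 and 10.29 and 9.81 in set 2. Those labelled Zeb2-deficient read 11.11 and 11.12 in set 1 and 9.78 and 10.22 in set 2. CD24+ cDCs thus lay between the CD172a+ arrays of the sets, and the difference from control CD172a+ cDCs was -0.67 in set 1 and 0.32 in set 2.

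Ctsz, a carboxypeptidase of the same family also known as cathepsin X, read 9.71, 9.53 and 9.78 in CD24+ cDCs. Control CD172a+ cDCs read 10.66 and 10.56 in set 1 and 9.93 and 8.90 in set 2, and those labelled Zeb2-deficient read 10.51 and 10.46, then 8.88 and 9.14. The difference between subsets was -0.90 in set 1 and 0.24 in set 2. Ctsh, an aminopeptidase, read 9.55, 9.45 and 9.47 in CD24+ cDCs, 10.42 and 10.38, then 9.72 and 9.54 in control CD172a+ cDCs, and 10.48 and 10.36, then 9.62 and 9.83 in those labelled Zeb2-deficient. Its difference was -0.85 in set 1 and -0.17 in set 2.

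Ctsb, a cysteine protease with both endo- and exopeptidase action, read 8.61, 8.42 and 8.07 in CD24+ cDCs and 8.49, 8.46, 8.05 and 8.24 in control CD172a+ cDCs. The groups overlapped throughout. Over all arrays the differences were -0.17 for Ctss (95% interval -0.98 to 0.64), -0.34 for Ctsz (-1.40 to 0.72), -0.53 for Ctsh (-1.09 to 0.04) and 0.06 for Ctsb (-0.41 to 0.53). Their adjusted p in limma lay at 0.922, 0.865, 0.359 and 0.957. With array set added as a block, Ctsh passed (difference -0.43, adjusted p = 0.0498), which makes 7 of 10 genes where 15.4% of all genes passed. Within the first set, which holds 1 CD24+ array whose spread is taken from the other groups, Ctsh, Ctss and Ctsz passed in limma (adjusted p = 0.0212, 0.0332 and 0.0175), and 9 of 10 genes passed in all, against 7.63% of all genes. Within the second set 4 of 10 passed, against 8.79%. The sets were found from these same values, and the spread of CD24+ cDCs within the first set was not measured. The p-values and counts within sets are therefore descriptions, and no conclusion is drawn from them. The same holds for the p-values and counts of the change between sets, given next, which cannot show an excess among these genes. The change of the subset difference between sets was tested as an interaction in limma and passed for 0 of the 10 genes. It was 0.997 for Ctss (SE 0.282, adjusted p = 0.187), 1.14 for Ctsz (SE 0.414, adjusted p = 0.325), 0.68 for Ctsh (SE 0.196, adjusted p = 0.193) and 0.54 for Ctsl (SE 0.220, adjusted p = 0.387). At an unadjusted p below 0.05 it reached 5 of the 10 (Ctsh, Ctss, Ctsz, Ctsl and Cst3), against 10.9% of all genes, and 0.657% of all genes passed after adjustment.

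**Figure D3:**
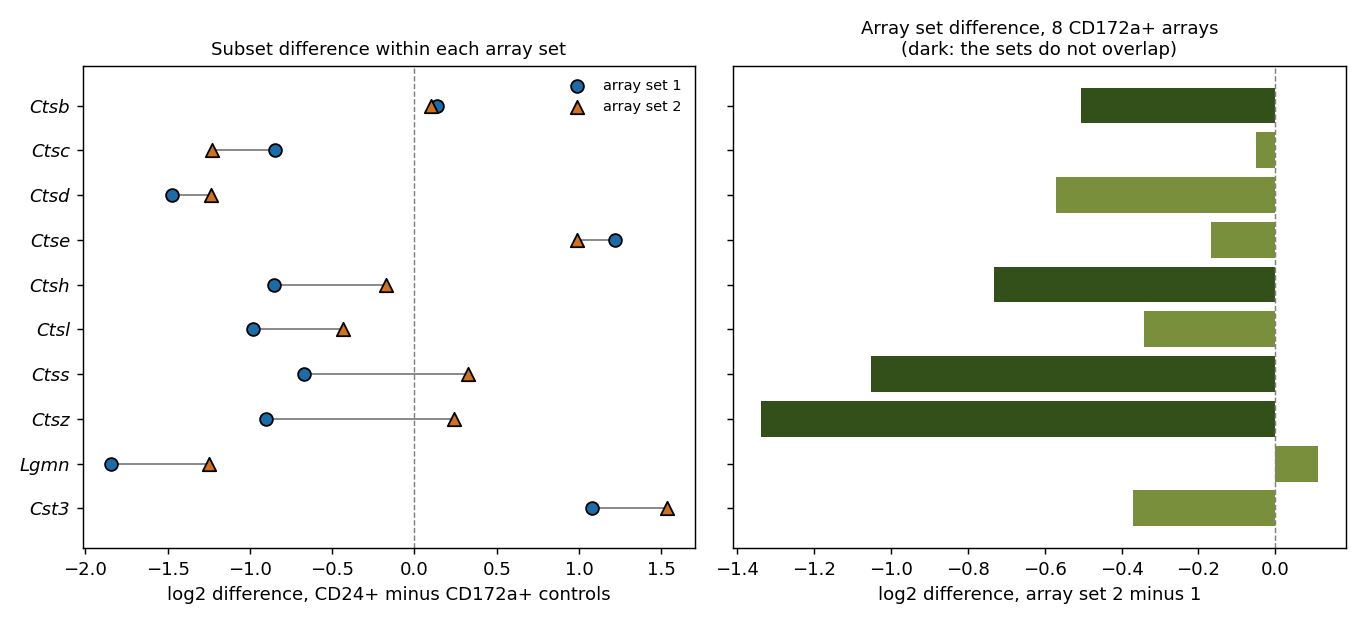
Left, the log2 difference of control CD24+ minus control CD172a+ cDCs within the first array set (circles, 1 CD24+ and 2 CD172a+ arrays) and the second (triangles, 2 and 2 arrays). Right, the log2 difference of the second minus the first set over the 8 CD172a+ arrays, dark where the sets do not overlap. The points of Ctss and Ctsz lie on opposite sides of 0, and those of the 6 genes that passed lie on the same side.

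Across the 8 CD172a+ arrays, 4 of the 10 genes were lower on every array of the second set than on any of the first, with differences of -1.34 for Ctsz, -1.05 for Ctss, -0.73 for Ctsh and -0.51 for Ctsb, and 0 were higher. Of all genes, 14.1% were lower and 12.1% higher in this sense. The median difference over all genes was 0.05, and 0.828% of genes had a lower value than Ctsz, 2.09% than Ctss, 5.08% than Ctsh and 9.66% than Ctsb. Lgmn differed by 0.11 and Ctsc by -0.05, so the genes that marked the CD172a+ subset most firmly did not part by set. Genes of class II loading were lower in the second set as well, in 11 of 11 measured, among them the chaperone subunit H2-DMa by -1.97 and the class II transactivator Ciita by -1.17. H2-DMa and Ciita were chosen after their values were seen. Markers of splenic macrophages moved the other way, with 17 of 18 higher in the second set and a summed linear signal of 1192 to 1470 in the first and 2113 to 2865 in the second. Of cDC2 markers 8 of 10 were lower in the second set, with sums of 5290 to 5566 in the first and 3454 to 4042 in the second, and of B cell markers 7 of 11, with 1271 to 1652 and 706 to 935. The sums of these 3 lists did not overlap between the sets. The part of these cells in the array set difference was not tested.

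Macrophages are rich in cathepsins, so their markers are given beside the subset comparison. Of 18 measured macrophage markers, 1 (Adgre1) was lower in CD24+ cDCs and 0 were higher at an adjusted p below 0.05. This share of 5.56% was near the 6.41% of all genes. Of the 18 markers, 10, among them Cd5l, Mertk, Marco and Siglec1, lay below the median level in every group. The summed signal was 724 to 1406 in CD24+ cDCs, 1290 to 2708 in control CD172a+ cDCs and 1192 to 2865 in those labelled Zeb2-deficient. The part of these cells in the higher Lgmn, Ctsd, Ctsc and Ctsl of CD172a+ cDCs was not tested. Within set 1 and set 2 in turn, the differences were -1.85 and -1.25 for Lgmn, -1.47 and -1.24 for Ctsd, -0.98 and -0.44 for Ctsl and -0.85 and -1.23 for Ctsc. Of neutrophil markers 10 of 11, and of erythroid and platelet markers 7 of 8, lay below the median in every group. The summed B cell markers were 437 to 543 in CD24+ and 706 to 1312 in control CD172a+ cDCs, those of T and NK cells 414 to 578 and 1398 to 2758, those of plasmacytoid dendritic cells 970 to 1147 and 870 to 1283, and those of monocytes 4817 to 6182 and 5213 to 7315. Below the median in every group lay 9 of 11 T and NK cell and 4 of 11 B cell markers (Cd79a, Pax5, Ebf1 and Cr2). The same held for 3 of 10 plasmacytoid dendritic cell and 3 of 13 monocyte markers. The part of these cells was not tested.

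Whether these genes depend on Zeb2 was addressed in CD172a+ cDCs, by setting the labelled Zeb2-deficient group against controls. None of the 10 genes passed in limma, where 0.0502% of all genes passed. At an unadjusted p below 0.05 there was 1, Cst3, against 3.88% of all genes. The median difference of the 10 was 0.04, and 0.01 for all genes.

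Cst3 read 12.13, 12.15, 11.91 and 12.01 in the labelled Zeb2-deficient group against 11.80, 11.90, 11.16 and 11.42 in control CD172a+ cDCs. It was the 1 gene of the 10 whose groups did not overlap, as 2.1% of all genes did not. The labelled group was also the more uniform, with an SD of 0.11 against 0.34 (n = 4 each). The difference was 0.48 (SE 0.150, 95% interval 0.15 to 0.81), with an adjusted p of 0.998 in limma. It was 0.29 within the first array set and 0.67 within the second, and its adjusted p in limma was 0.123 when array set was a block and 0.244 when replicate number was (8 CD172a+ arrays). By exact permutation (two-sided, 70 assignments) it reached 0.0286, the smallest p allowed, and the other 9 genes lay between 0.114 and 0.886.

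Ctsd read 7.84, 7.65, 6.58 and 7.12 in the labelled Zeb2-deficient group. These values overlap the control CD172a+ range of 7.17 to 8.24. The difference was -0.53 (95% interval -1.15 to 0.09), and -0.21 and -0.85 within the sets. Lgmn read 8.76, 8.68, 8.90 and 9.08, a difference of -0.31 (95% interval -0.73 to 0.11). Ctsl read 7.27, 7.05, 6.82 and 6.61, a difference of 0.26 (95% interval -0.07 to 0.59). None of these exceeded the spread between replicates in limma.

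Ctse read 5.93, 5.93, 5.61 and 5.92 (difference 0.18, 95% interval -0.14 to 0.51) and Ctsc 10.31, 10.13, 10.10 and 10.16 (-0.06, 95% interval -0.34 to 0.21). Of the 10 genes, Ctsc thus had the narrowest interval. For Ctss, Ctsz, Ctsh and Ctsb the differences were 0.01 (95% interval -0.74 to 0.77), -0.27 (-1.25 to 0.72), 0.06 (-0.46 to 0.58) and 0.08 (-0.35 to 0.52). Ctsb read 8.84, 8.64, 8.06 and 8.04 in this group. The adjusted p was 0.998 in limma for all 10 genes, and the widest interval reached -1.25 for Ctsz. Single markers of other cells passed in this comparison in limma, where 0.0502% of all genes passed. Of monocyte markers, 1 of 13 (Lyz2, -1.66) was lower in the labelled group, with a summed signal of 3574 to 5831 against 5213 to 7315 in controls. Of plasmacytoid dendritic cell markers 1 of 10 (Cox6a2) was higher, with a sum of 1203 to 1706 against 870 to 1283, and of B cell markers 1 of 11 (Fcer2a), with 917 to 1652 against 706 to 1312. The median differences of these 3 lists were -0.30, 0.03 and -0.02. Positive and negative differences numbered 3 and 10, 5 and 5, and 5 and 6. An unadjusted p below 0.05 in limma was reached by 5, 4 and 4 genes, against 3.88% of all genes. Of T and NK cell markers 0 of 11 passed and 0 had an unadjusted p below 0.05 in limma, while their sums did not overlap, at 2909 to 3399 against 1398 to 2758. Of these 11 markers, 9, among them Cd3d, Cd3e and Cd3g, lay below the median level in every group. The part of these cells was not tested.

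Set against control CD24+ cDCs, the labelled Zeb2-deficient CD172a+ cDCs passed for 5 of the 10 genes in limma, 3 higher and 2 lower, where 7.17% of all genes passed (3.25% higher, 3.92% lower). No count is given within the first array set, which holds 1 CD24+ array. This comparison shares its arrays with the others, so values are only set side by side. Ctsc (1.04), Lgmn (1.14) and Ctsl (0.92) were higher in the labelled CD172a+ cDCs and Cst3 (-0.81) and Ctse (-0.86) lower. Ctsd was higher by 0.83 with no overlap but did not pass (adjusted p = 0.157), and it passed without labelled Zeb2-deficient replicate 3 (1.07, adjusted p = 0.0418). Ctsh was higher by 0.59, also with no overlap, and did not pass (adjusted p = 0.253), but passed when array set was added to limma as a block (0.49, adjusted p = 0.0242). In order of level, Cst3 fell from CD24+ (12.86) through labelled Zeb2-deficient CD172a+ (12.05) to control CD172a+ cDCs (11.57), the last neighbours not differing in limma. Ctsd rose from CD24+ (6.47) through labelled Zeb2-deficient (7.30) to control CD172a+ cDCs (7.83), neither step passing in limma. Lgmn ran from 7.71 through 8.85 to 9.16 in the same order, with only the first step passing. For Ctsl the order was CD24+ (6.02), control CD172a+ (6.67) and labelled Zeb2-deficient CD172a+ (6.94), with the first step passing, and for Ctse it was control CD172a+ (5.66), labelled Zeb2-deficient CD172a+ (5.84) and CD24+ (6.70), with the last step passing. Ctsc ran from CD24+ (9.13) to labelled Zeb2-deficient (10.18) and control CD172a+ cDCs (10.24), the first step passing.

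Genes that share the compartment with these proteases were taken from 7 lists with 184 members, of which 159 were measured. Between the control subsets 21 were higher and 13 lower in CD24+ cDCs, and 125 did not pass. Lysosomal glycosidases, lipases and sulfatases held more of them than any other list, with 9 higher, 5 lower and 22 not passed of 36, a share of 38.9% against 6.41% of all genes and a median of 0.10. Ppt1, which removes palmitate from proteins, averaged 12.09 ± 0.06 in CD24+ and 9.20 ± 0.19 in control CD172a+ cDCs (SD, n = 3 and 4), a 7.42-fold difference with an adjusted p of 3.54e-06 in limma. The beta-glucuronidase gene Gusb was 7.99-fold, the galactosylceramidase gene Galc 6.24-fold and the arylsulfatase gene Arsb 3.69-fold higher in CD24+ cDCs. The CD172a+ mean of Galc (4.74) lay below the median level, so its fold is not an exact ratio. The acid phosphatase gene Acp5 was 5.14-fold lower.

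Of other lysosomal proteases, 2 were higher, 2 lower and 15 not passed of 19, a share of 21.1% against 6.41% of all genes. Of these 19 genes, 11 lay below the median level in every group. The plasma glutamate carboxypeptidase gene Cpq was 4.92-fold and the dipeptidyl peptidase gene Dpp7 1.39-fold higher in CD24+ cDCs. The CD172a+ mean of Cpq (5.61) lay close to the median level, so its fold is not an exact ratio. The protective protein gene Ctsa was 3.08-fold and the tripeptidyl peptidase gene Tpp1 1.89-fold lower. The count fell from 4 to 2 without CD24+ replicate 1, 2 or 3. Of other cystatins and protease inhibitors, 18 did not pass of 21, and 14.3% passed. Of these 21 genes, 14 lay below the median level in every group. Ctla2b, related to the cathepsin propeptide (2.70-fold), and the serpin gene Serpinb1a (2.66-fold) were higher. The CD172a+ means of Ctla2b (4.51) and Serpinb1a (5.38) lay below the median level, so their folds are not exact ratios. Cst7, which encodes the leukocyte cystatin F (4.0-fold), was lower. The count that passed rose from 3 to 5 without control CD172a+ replicate 4 and to 5 with the array set as a block. Cst3 and Cst7, both cystatins, thus differed in opposite directions. Cst7 also read lower in the labelled Zeb2-deficient group, at 6.46 ± 0.11 against 7.26 ± 0.47 (SD, n = 4 each), a difference of -0.81 that did not pass (adjusted p = 0.998 in limma).

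Of genes of lysosomal sorting and biogenesis, 3 were higher, 3 lower and 19 not passed of 25, a share of 24% against 6.41% of all genes. The count that passed fell from 6 to 3 without CD24+ replicate 2. Igf2r, the receptor that carries mannose 6-phosphate tagged enzymes to lysosomes, was 2.94-fold higher in CD24+ cDCs, with a CD172a+ mean (4.76) below the median level, and the adaptor subunits Ap1b1 and Ap3d1 were 1.83-fold and 1.53-fold higher. The sorting receptor gene Sorl1 was 2.18-fold lower. Tfeb, chosen after its values were seen, was 2.06-fold lower in CD24+ cDCs (5.79 ± 0.32 against 6.84 ± 0.30, adjusted p = 0.0216 in limma). Its relative Tfe3 differed by -0.25 and did not pass (adjusted p = 0.107 in limma). A link between Tfeb and the CACGTG matches was not tested. Of vacuolar ATPase subunits, which acidify the compartment, Atp6v0a2 (2.31-fold) and Atp6v1b2 (1.52-fold) were higher and 20 of 22 did not pass, so that the share that passed, 9.09%, was near the 6.41% of all genes.

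Of lysosomal membrane proteins, 21 of 25 did not pass, and 16% passed. Laptm4b (3.39-fold, with a CD172a+ mean of 5.56 close to the median level) and Scarb2 (1.65-fold) were higher. The cholesterol transporter gene Npc1 (2.14-fold) and the histidine transporter gene Slc15a4 (2.02-fold) were lower. None of these 4 calls held without control CD172a+ replicate 1 or 2 or CD24+ replicate 2 or 3, where 0 of the list passed, and 2 passed without control CD172a+ replicate 3. Of the endosomal reductase Ifi30 and genes of class II loading, 1 of 11 passed, the intramembrane protease gene Sppl2a, which degrades the invariant chain stub (1.31-fold higher), a share of 9.09% that is also near the 6.41% of all genes. It was lost without control CD172a+ replicate 1, 3 or 4 or CD24+ replicate 2 or 3. Ifi30 itself differed by -0.23 (adjusted p = 0.772). In the labelled Zeb2-deficient group 0 of the 159 genes passed against control CD172a+ cDCs in limma and 8 (5.03%, against 3.88% of all genes) had an unadjusted p below 0.05, with list medians from -0.07 to 0.07. Beside Cst7, the 4 genes with the smallest p in each list included the sorting receptor gene Sort1 (0.54), the class II loading regulator gene H2-Ob (0.54) and Acp5 (-0.52), of which none passed. The smallest p in the lists of Sort1 and Acp5 belonged to Gga3 (0.31) and Naglu (-0.30), which did not pass either.

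**Figure D4:**
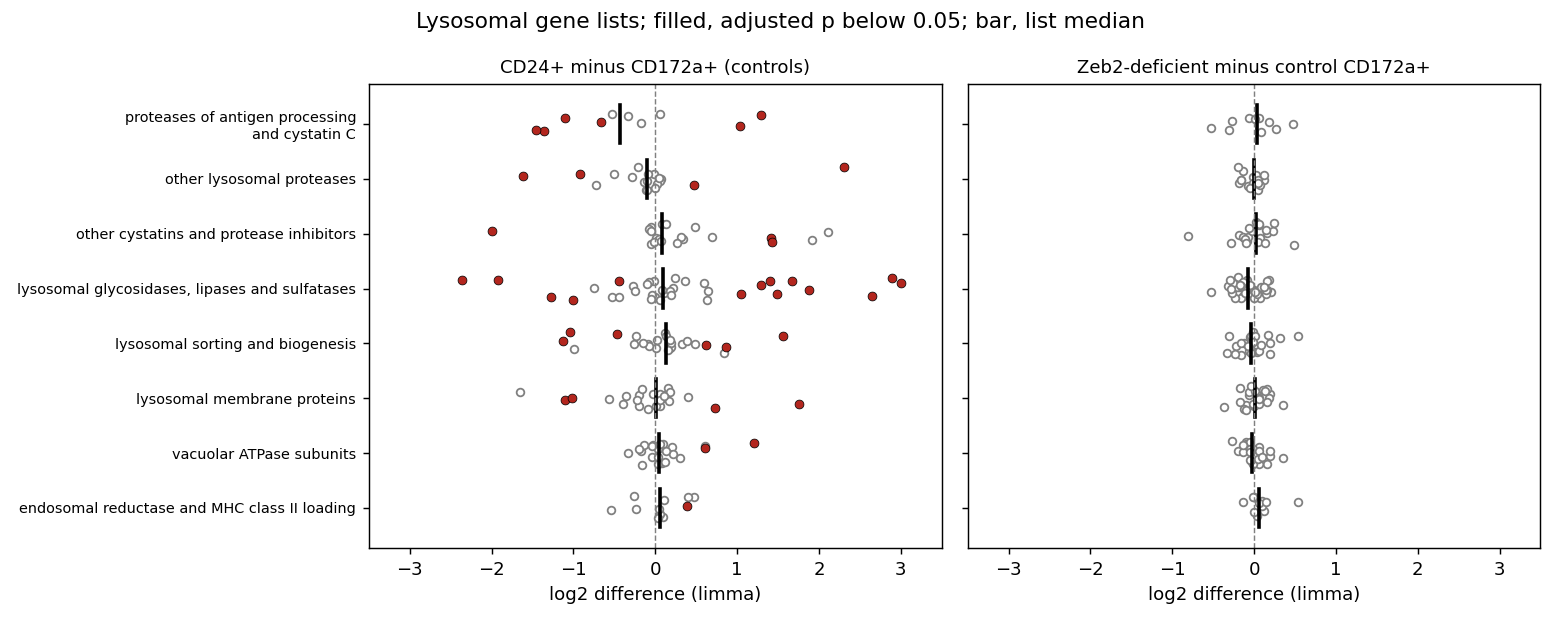
Fitted log2 differences of the 10 genes and of 7 lists of lysosomal genes, for control CD24+ minus control CD172a+ cDCs (left) and CD172a+ cDCs labelled Zeb2-deficient minus control (right). Each point is a gene, filled where the adjusted p was below 0.05, and black bars are list medians. Passing genes lie on both sides of 0 on the left in most lists, and none of them is filled on the right.

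Patterns like those of the 3 genes with the largest subset difference were sought over the 11 arrays among 9959 other genes at or above the median level. Lgmn was most like Syk, a kinase downstream of immune receptors (Pearson r = 0.967), the repressor gene Zbtb18 (0.955) and Clec7a, the beta-glucan receptor dectin-1 (0.955). Ctsd was most like the clock gene Per1 (0.974), the acid phosphatase gene Acp5 (0.953) and Haus8 (0.946). Cst3 was most like Map4k5 (0.973), Asl (0.971) and Parp8 (0.970). The arrays share their subset and array set, so these values describe a common profile of groups and sets.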

How the data were processed

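The authors deposited 1 log2 value per probe set and array, from 1-colour arrays hybridised with biotin-labelled RNA. Per the submitters' processing notes these come from RMA, which subtracts background, applies quantile normalization and summarises probes. The software version, probe filters and build are not known here. Of 30177 probe sets, 21789 carried 1 gene symbol in the platform annotation, and each of 19938 genes was represented by the one with the highest mean. Array medians lay between 5.45 and 5.52, and precision is limited by how many arrays there are.

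The test was limma 3.58.1 (R 4.3.3), in 1 model over all 11 arrays with group as the only factor (8 residual degrees of freedom), two-sided, with Benjamini-Hochberg adjustment over all genes and a threshold of 0.05. The fit was first tested on simulated data. Array sets were taken from the sign of the second principal component over all genes. CD172a+ arrays with the same number in both genotypes deviated together (r from 0.442 to 0.680 in 4 pairs). Those with other numbers within an array set did so as well (0.496 to 0.699), so the numbers showed no pairing beyond the array set. The main model used no pairing, and replicate number entered as a block only among the alternatives. CD24+ arrays ranged from -0.445 to 0.506 with the control CD172a+ array of the same number, and from -0.361 to 0.592 with the labelled Zeb2-deficient one. The negative values are those of number 2, which lies in different array sets in CD24+ and CD172a+ cDCs. The genes, lists and tests were chosen with earlier results of these data known. Named beside the 10 genes were up to 4 genes of each list with the smallest p in each of the first 2 comparisons, and 3 genes most like each of 3 members. Alternatives were filters on low values, the mean of a gene's probe sets, other array scalings, array weights, trended moderation, blocks for array set and replicate number, and each array left out in turn. Tables were handled and figures drawn with Python 3.11.15, pandas 2.3.3, numpy 2.4.6 and matplotlib 3.10.9.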

Additional observations from a re-analysis of the deposited data

Results flagged for a closer look

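Among 20 groups of 4 arrays examined (10 genes in 2 groups), 1 array stood apart from its group, where chance gives about 1 in 20. Ctse in labelled Zeb2-deficient replicate 3 read 5.61, while the other 3 arrays lay between 5.92 and 5.93, a gap of 0.966 of the group's range, above Dixon's critical value. Without this array the Ctse difference from control CD172a+ cDCs was 0.26 in place of 0.18.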

How the results depend on the processing

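In the comparison of the control subsets, at least 4 of the 10 genes passed over all alternatives, against 6, and 4 to 6 with any 1 array left out. With array set or replicate number (11 arrays) as a block 7 passed. The replicate block does not follow the array sets, because number 2 lies in set 2 for CD24+ and in set 1 for CD172a+ arrays. Against control CD24+ cDCs, at least 4 of 10 passed for the labelled Zeb2-deficient CD172a+ cDCs, against 5, and 5 to 6 with any 1 array left out. In the comparison with control CD172a+ cDCs 0 passed under every alternative run, the replicate block over the 8 CD172a+ arrays included. Fits within 1 array set and the change of the subset difference between sets were chosen after seeing the data. The sets were found from the same values, so the p-values and counts of these fits are descriptions only. Ctsl was lost with arrays centred on their median (-0.62, adjusted p = 0.0626).

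Sign changes concerned only genes that had not passed. Against control CD172a+ cDCs, the labelled group changed sign with array weights for Ctsh (-0.057) and Ctss (-0.13), with quantile normalization applied again for Ctss (-0.0090), and in the second array set for Ctsb (-0.094) and Ctss (-0.053). With 1 array left out, the ranges were -0.062 to 0.20 for Ctsb, -0.13 to 0.0064 for Ctsc, -0.10 to 0.21 for Ctsh, -0.23 to 0.27 for Ctss and -0.64 to 0.024 for Ctsz. Between the control subsets Ctsb changed sign with the replicate block over all 11 arrays (-0.012), repeated quantile normalization (-0.015) and array weights (-0.074), and Ctss (0.32) and Ctsz (0.24) did in the second set. With 1 array left out Ctsb ranged from -0.061 to 0.21 and Ctss from -0.42 to 0.0025. Against CD24+ cDCs, the labelled group changed sign with the array set as a block for Ctsb (-0.052) and Ctsz (-0.10), with arrays centred on their median for Ctsb (-0.025), and in the second set for Ctsb (-0.20), Ctss (-0.38) and Ctsz (-0.65). With 1 array left out, the ranges were -0.12 to 0.15 for Ctsb, -0.0018 to 0.45 for Ctss and -0.18 to 0.36 for Ctsz. The cause was not tested.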
